A study of Mus musculus with 2 samples.

Results

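The regions described here are sites of open chromatin inside genes in the developing mouse face that were found in both libraries of the study. They lay far from the gene starts counted here, which were not all annotated starts. Each was a replicate 1 peak of 150 bp on chromosomes 1 to 19, covered over at least 75 bp by a peak of replicate 2. Its midpoint lay within the body of a protein-coding gene, outside the exons of protein-coding genes. It was more than 10 kb from every protein-coding transcription start site (TSS) counted and at most 500 kb from the nearest. The TSSs counted were those of protein-coding transcripts in the GENCODE basic set, so starts of other protein-coding transcripts could lie closer. The rule selected 18089 regions, called members below, out of 205599 replicate 1 peaks. They made up 21.5% (exact 95% binomial interval 21.3 to 21.8) of the 83993 peaks that both libraries shared. With TSSs of every protein-coding transcript counted, basic set or not, there were 16769 such regions. The rule used the peak calls of both libraries and their positions, so these counts describe the selection and are not a result. Intervals here and below cover counting error only. The gene that a member lies in is called its host.

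The libraries were made by DNase-seq, in which sites cut by the nuclease DNase I in isolated nuclei are sequenced. Nuclei came from the embryonic facial prominence, the tissue that forms the face, of B6NCrl mouse embryos aged 11.5 days, with males and females pooled and no treatment or engineered allele named. Both libraries, biological replicates 1 and 2, belong to this 1 group, so there was no contrast between conditions, and a mixed tissue cannot show which of its cell types opened a site. How many embryos went into each library, how deep each was sequenced and on what scale peak strength was set could not be read from the labels or files.

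Most of a mammalian gene is intron, and introns hold many of the enhancers and insulators that control genes, either the host itself or a neighbour at a distance. Enhancers are bound by combinations of tissue-specific transcription factors. Insulators and the anchors of chromatin loops are bound by CTCF, a zinc finger protein whose sites are open in most cell types. In the face, neural crest mesenchyme is directed by homeodomain and basic helix-loop-helix factors such as those of the Alx, Msx, Dlx and Twist families, and the bases they prefer can be searched for in open sites.

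Members differed most clearly from other intronic sequence in 1 motif, and the strongest of those that hold it are shown first. The CTCF letters searched, on either strand, were CCA, AG and GGC in this order, with 2 bases of any kind between each and the next. In the sequences below, from genome build mm10, plus strand, 5′ to 3′, capitals mark these letters. They are the 4 strongest members, on the chromosomes from which sequence is shown, with the motif in later introns (introns other than the first), ranked by strength in both libraries.
Ldb3, chr14:34549476-34549625: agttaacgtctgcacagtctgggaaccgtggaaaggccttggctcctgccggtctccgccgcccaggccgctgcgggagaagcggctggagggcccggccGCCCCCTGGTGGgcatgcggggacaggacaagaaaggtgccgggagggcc
Lrrc75a, chr11:62613796-62613945: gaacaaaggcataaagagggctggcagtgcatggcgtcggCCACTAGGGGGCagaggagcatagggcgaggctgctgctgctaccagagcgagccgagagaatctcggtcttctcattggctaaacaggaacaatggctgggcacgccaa
Prkcz, chr4:155308196-155308345: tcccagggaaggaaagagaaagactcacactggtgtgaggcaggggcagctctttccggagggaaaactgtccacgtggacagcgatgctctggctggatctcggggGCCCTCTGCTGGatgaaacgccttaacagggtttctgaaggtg
Dync1i1, chr6:6005796-6005945: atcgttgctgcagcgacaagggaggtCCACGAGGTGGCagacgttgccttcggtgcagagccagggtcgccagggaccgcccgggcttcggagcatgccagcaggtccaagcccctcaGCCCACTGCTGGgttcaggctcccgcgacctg

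Strength is the authors' own value per peak, a bounded score used only within a library. In replicates 1 and 2, strengths were 95 and 126 in Ldb3, which encodes a protein of the muscle Z-disc, 89 and 125 in Lrrc75a, 78 and 131 in the atypical protein kinase C gene Prkcz, and 88 and 120 in Dync1i1, a dynein subunit gene. All stood well above the member medians of 27 and 63. The Dync1i1 member held the letters at 2 places. It lay in intron 14, 211 kb from the nearest protein-coding TSS, and 195 bp from the annotated start of another transcript, in a gene known to carry enhancers of the neighbouring jaw regulators Dlx5 and Dlx6.

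Another set shows members in genes of craniofacial and neural crest transcription factors, because these genes were dense in members and poor in CTCF letters. Capitals mark the E-box CAGATG (or CATCTG on the other strand), a site for Twist and related basic helix-loop-helix factors, and the homeodomain letters TAATTA. They are the 5 strongest members, on the chromosomes from which sequence is shown, in such genes that hold either motif and lie more than 1 kb from any annotated TSS.
Nfix, chr8:84742716-84742865: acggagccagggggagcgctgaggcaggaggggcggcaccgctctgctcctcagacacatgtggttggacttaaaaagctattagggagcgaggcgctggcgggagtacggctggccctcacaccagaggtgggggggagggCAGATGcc
Zfhx3, chr8:108027656-108027805: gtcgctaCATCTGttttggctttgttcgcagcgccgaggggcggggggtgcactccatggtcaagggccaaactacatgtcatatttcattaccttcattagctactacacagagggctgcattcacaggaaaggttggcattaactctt
Tcf7l1, chr6:72711736-72711885: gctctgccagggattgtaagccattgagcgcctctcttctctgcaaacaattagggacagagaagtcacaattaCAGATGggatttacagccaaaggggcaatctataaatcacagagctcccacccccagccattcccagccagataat
Pbx3, chr2:34249636-34249785: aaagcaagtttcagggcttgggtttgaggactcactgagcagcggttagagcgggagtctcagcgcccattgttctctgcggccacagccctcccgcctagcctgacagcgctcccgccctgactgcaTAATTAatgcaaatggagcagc
Tead1, chr7:112826376-112826525: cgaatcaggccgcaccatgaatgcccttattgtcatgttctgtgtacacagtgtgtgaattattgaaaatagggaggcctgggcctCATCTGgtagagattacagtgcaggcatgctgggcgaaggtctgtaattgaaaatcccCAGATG

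Strengths in replicates 1 and 2 were 85 and 123 in Nfix, 79 and 119 in Zfhx3, 64 and 124 in Tcf7l1, 68 and 118 in Pbx3 and 67 and 117 in Tead1. Nfix encodes a nuclear factor I protein, Zfhx3 a zinc finger homeodomain protein, Tcf7l1 an effector of Wnt signalling, Pbx3 a partner of homeodomain proteins and Tead1 the DNA-binding partner of the Yap coactivator. The Nfix, Zfhx3, Tcf7l1 and Tead1 members held CAGATG, at 2 places in Tead1, and the Pbx3 member held TAATTA. A match of letters is a description and does not show that a factor was bound.

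The CTCF letters were in 2981 of the 18089 members, 16.5% (15.9 to 17.0), against 0.849% of all 4532450 non-overlapping windows of 150 bp in the same kind of intronic sequence. Members were richer in G and C than these windows, with a median of 49.3% against 42.7%. Windows of the same GC content held the letters at 1.12%, so that the share in members was 14.7 times that in these windows. Among all intronic peaks of each library, matched or not, the share was 6.33% in replicate 1 and 7.99% in replicate 2, or 6.60 and 7.18 times the windows of like GC. Shared intergenic peaks more than 10 kb from a TSS held the letters at a share close to that of members, 15.2% (14.8 to 15.7). Shared intronic peaks 1 to 10 kb from a TSS held them at 14.3% (13.5 to 15.0).

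Sites with the CTCF letters recurred between the libraries more than other sites did. Of the replicate 1 peaks at such intronic positions, 35.6% had a match in replicate 2, against 34.7% in intergenic sequence and 40.9% over all replicate 1 peaks. Of the 3221 with the CTCF letters, 2981 had a match, 92.5% (91.6 to 93.4), and of the 47653 without them 15108, 31.7% (31.3 to 32.1). For the other motifs searched, the matched share ran from 22.7% for GATA letters to 54.0% for the E-box CAGCTG. Since a match is part of the rule, these shares are a description. Members with the CTCF letters had median strengths of 38 (quartiles 26 and 51) in replicate 1 and 71 (55 and 86) in replicate 2, above the 25 (18 and 36) and 61 (45 and 79) of members without them.

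Of the 16 other motifs, 12 had an interval in members that lay above the share in windows of the same GC content, 3 (AP-1, MEIS and nuclear receptor letters) had one that included it, and GATA had one below it. Homeodomain letters TAATTA were in 4.29% of members against 2.34% of such windows, 1.83 times as many, although all windows together, being richer in A and T, held them at 5.46%. The E-box CAGCTG, a site of myogenic and other helix-loop-helix factors, was in 15.1% of members against 8.87%, and CAGATG in 20.4% (19.8 to 21.03) against 12.8%. For TAATTA the ratio to windows of like GC was 1.26 in replicate 1 and 2.05 in replicate 2, and for CAGATG it was 1.26 and 1.64, so both families stood above windows in each library. TEAD letters GGAATG were in 11.6% against 8.69%, ETS letters CCGGAA in 2.44% against 1.78%, FOX letters TGTTTAC in 2.16% against 1.64%, AP-2 letters GCCNNNGGC in 5.43% against 4.19% and the E-box CACGTG in 3.03% against 2.25%. The AP-2 and CTCF letters can overlap.

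The remaining families differed less from windows of the same GC content. PBX letters TGATTNAT were in 1.77% against 1.505%, NFI letters TTGGCA in 8.73% against 7.65%, SOX letters ACAANG in 29.4% against 26.6%, RUNX letters TGTGGTT in 3.75% against 3.41%, AP-1 letters TGANTCA in 4.32% against 4.13% and MEIS letters TGACAG in 11.9% against 11.5%. Nuclear receptor letters AGGTCA were at 9.69% against 9.91%. GATA letters AGATAA, the preferred bases of factors best known from blood and endoderm, were the family with a clearly lower share, 5.10% (4.78 to 5.43) against 6.23%. In the single libraries the GATA share was 0.956 and 0.881 times that of like windows. Repeats were scarce: more than 50% of the bases were soft-masked in 4.48% of members against 22.7% of windows. Among shared intergenic peaks more than 10 kb from a TSS this share was similar, 4.17%.

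**Figure D1:**
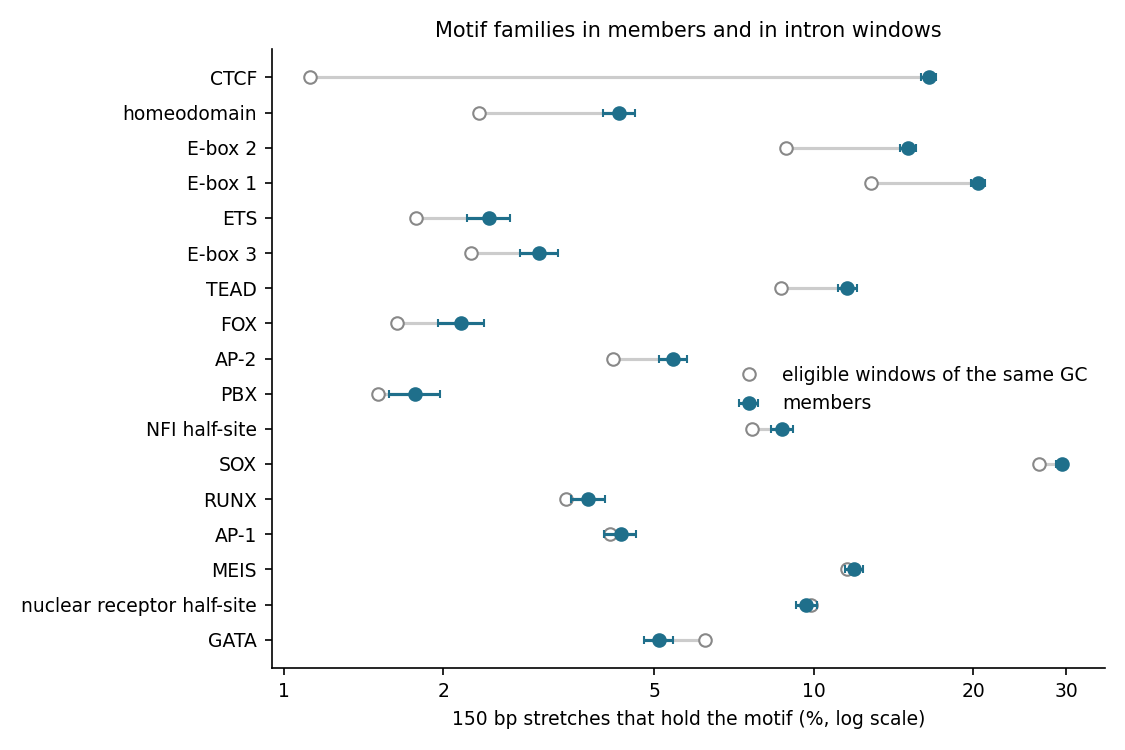
Share of 150 bp stretches that hold the letters of each motif family (percent, log scale), for members (filled points, exact 95% binomial intervals) and for windows of eligible intronic sequence of the same GC content (open points). E-box 1 is CAGATG, E-box 2 CAGCTG and E-box 3 CACGTG. CTCF stands apart at 16.5% against 1.12%, and the GATA family is the one with a clearly lower share in members.

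Members were compared between first and later introns, numbered on 1 transcript of each gene. First introns held 3042 members and later introns 13443, while 1552 lay in a gene body but outside the numbered transcript and 52 in hosts of both kinds. Eligible sequence, meaning all bases that meet the position rule, came to 121.8 Mb in first introns and 514.2 Mb in later ones. Members numbered 24.98 per Mb (exact Poisson 95% interval 24.1 to 25.9) in first introns and 26.1 per Mb (25.7 to 26.6) in later introns, a ratio of 0.956 (0.918 to 0.994). Of the 3042 first-intron members, 2844 lay outside Gm20388, a read-through gene model whose transcripts join neighbouring genes. Without any read-through gene the ratio was 0.913. The direction was not kept in the single libraries. All peaks of replicate 1 gave 75.1 per Mb in first and 72.6 per Mb in later introns, and all peaks of replicate 2 gave 85.4 and 78.6, so that the ratios were 1.035 and 1.087, a mean of 1.06 ± 0.0369 (SD, n = 2). No difference in total density that held in both views was found.

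Splitting the members by the CTCF letters separated these views. Members with the letters were at 2.88 per Mb (2.59 to 3.20) in first introns and 4.67 per Mb (4.48 to 4.86) in later introns, a ratio of 0.617 (0.550 to 0.691). The same ratio was 0.639 (0.573 to 0.711) for all replicate 1 peaks with the letters and 0.677 (0.618 to 0.740) for those of replicate 2. CTCF letters themselves were only slightly rarer in first introns, at 0.7999% of windows against 0.871%. Members without the letters were at 22.1 per Mb (21.3 to 22.9) in first and 21.5 per Mb (21.1 to 21.9) in later introns, a ratio of 1.03 (0.986 to 1.07), whose interval includes 1 and which was 0.987 without read-through genes. This ratio changed with distance to the nearest TSS. It was 1.11 (1.025 to 1.21) at 10 to 20 kb, 1.03 at 20 to 50 kb, 0.931 at 50 to 100 kb and 0.834 (0.738 to 0.940) beyond 100 kb. With the letters, the ratio beyond 100 kb was 1.002 (0.718 to 1.37). For peaks without the letters in the single libraries the ratios were 1.06 (1.04 to 1.09) and 1.13 (1.10 to 1.15).

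Put as shares, 11.5% (10.4 to 12.7) of first-intron members and 17.9% (17.2 to 18.5) of later-intron members held the CTCF letters. At 10 to 20 kb from the nearest TSS the shares were 14.1% (11.96 to 16.5) and 25.8% (24.1 to 27.6), at 20 to 50 kb 10.2% (8.53 to 12.1) and 20.7% (19.6 to 21.96), and at 50 to 100 kb 9.00% (6.83 to 11.6) and 14.9% (13.7 to 16.2). Beyond 100 kb they were 13.1% (9.70 to 17.1) and 11.1% (10.1 to 12.2), with overlapping intervals. First-intron members had somewhat more E-boxes CAGATG, 22.3% (20.8 to 23.8) against 20.2% (19.5 to 20.9), more TEAD letters, 13.0% (11.8 to 14.3) against 11.1% (10.6 to 11.7), and more ETS letters, 3.35% (2.74 to 4.06) against 2.23% (1.99 to 2.50). The TEAD and ETS shares were also higher in first introns in each library alone: 9.97% against 9.74% and 13.0% against 11.6% for TEAD, and 2.11% against 1.60% and 2.94% against 2.51% for ETS. The TEAD gap in replicate 1 was within counting error.

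Member density was lowest beyond 100 kb from a gene start in both kinds of intron. At 10 to 20 kb from the nearest TSS they numbered 28.9 per Mb (28.0 to 29.8), at 20 to 50 kb 28.6, at 50 to 100 kb 27.5 and beyond 100 kb 20.1 (19.4 to 20.7). In later introns it was level up to 100 kb, at 28.8, 28.8 and 28.4 per Mb. All peaks of the single libraries were densest at 50 to 100 kb, with 70.1, 75.4, 79.7 and 67.3 per Mb over the 4 classes in replicate 1 and 80.5, 85.3, 86.8 and 68.5 in replicate 2. In later introns of replicate 1 the density beyond 100 kb, 69.3 per Mb, was above the 64.4 at 10 to 20 kb. The ratio of first to later introns was 0.962, 0.914, 0.870 and 0.853 in these classes. In the single libraries it ran from 1.24 to 0.837 in replicate 1 and from 1.20 to 0.865 in replicate 2 over the nearest and farthest classes. First introns were thus ahead close to the start in each library alone and behind beyond 100 kb in every view. The median member lay 44.0 kb from the nearest TSS (quartiles 22.5 and 90.9), and 22.03% lay beyond 100 kb.

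**Figure D2:**
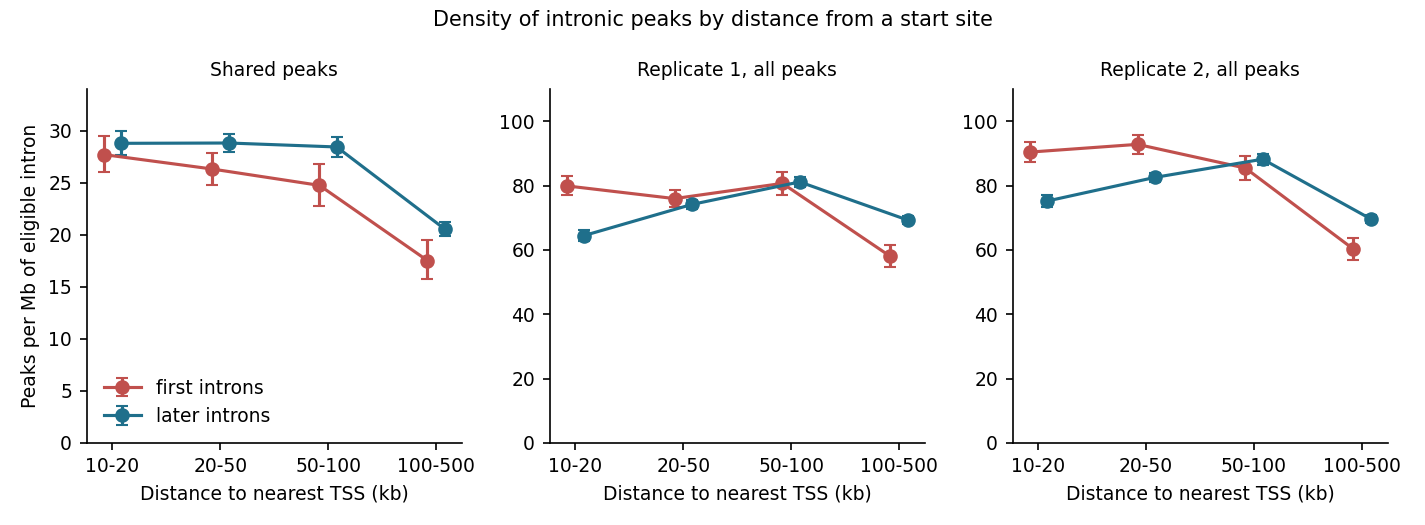
Peaks per Mb of eligible sequence in first and later introns by distance to the nearest protein-coding TSS (kb), for members and for all peaks of each library, with exact 95% Poisson intervals. Among members, first introns are below later introns in each class; in each library alone they are above at 10 to 20 kb and below beyond 100 kb.

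Density also depended on the size of the intron. It was 27.5 per Mb in first introns of up to 50 kb and 27.7 in later ones, 27.8 and 26.5 for introns of 50 to 100 kb, 22.1 and 21.7 for those of 100 to 200 kb, and 20.8 (19.1 to 22.5) and 17.4 (16.0 to 18.9) for those over 200 kb. The 597 members in first introns over 200 kb include 228 of the read-through model Gm20388, in 2969 kb of the 28.8 Mb of that class. The higher value of first introns there thus leans on 1 gene model, and the density without it was not computed. Among members, the differences between first and later introns within a size class were smaller than those between short and very long introns. This did not hold throughout for all peaks of the single libraries. Up to 50 kb, first and later introns had 81.7 and 72.55 per Mb in replicate 1 and 93.7 and 79.0 in replicate 2. Over 200 kb they had 55.4 and 64.7 in replicate 1 and 65.55 and 63.0 in replicate 2. By position in the transcript, density was 24.8 per Mb in both introns 1 and 2, 27.3 in intron 3, 26.5 in introns numbered 8 or higher, 28.2 in the last intron of a gene with at least 2, and 18.96 (15.7 to 22.7) in sole introns. Along first introns, from the 5′-most to the 3′-most of 5 equal parts, it was 23.7, 22.01 (20.2 to 23.9), 25.3, 25.3 and 26.5 (24.7 to 28.4) per Mb, and along later introns 24.9, 26.4, 26.5, 27.1 and 26.4. By distance to the nearest exon it was 26.97 per Mb within 1 kb, 28.8 at 1 to 5 kb, 26.3 at 5 to 20 kb and 22.3 beyond 20 kb.

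The comparison was repeated within genes that had at least 20 kb of eligible sequence of both kinds. Of these 1250 genes, 1115 had a member, and of those 433 (38.8%) were denser in the first intron and 682 in the later ones. Many had members in 1 kind only, 110 in the first intron and 389 in later introns. First introns were the smaller part of the sequence and so more often empty, hence this count of genes does not compare densities. Summed over these genes, the density was 24.4 per Mb in first and 24.9 per Mb in later introns, a ratio of 0.982. First introns held 32.5% of their members and 32.9% of their eligible sequence. The read-through model Gm20388 meets this rule, with 228 members in 2969 kb of first intron and 2 in 46.5 kb of later introns. Its density of 0.0763 per kb was above the mean of 0.0260 over all eligible sequence. Gm20388 thus raises the summed first-intron density and the ratio of 0.982, and the sum without it was not computed. Strengths of all first-intron and later-intron members were close, with medians of 26 and 62 in replicates 1 and 2 for first-intron members and of 27 and 63 for later ones.

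Strengths of members ran up to 117 in replicate 1 and 142 in replicate 2, with quartiles of 19 and 39 and of 46 and 80. Shared intergenic peaks more than 10 kb from a TSS had the same medians of 27 and 63, while shared peaks within 1 kb of a TSS had 62 and 103. Member strengths in replicate 1 and replicate 2 were correlated (Pearson 0.822, Spearman 0.829). The points are members of the same pair of libraries and share their bounded scale, so no p is given. Just inside the distance threshold, the 402 members at 10 to 11 kb had median strengths of 31 and 66, and just outside it the 469 shared intronic peaks at 9 to 10 kb had 30 and 64. The smallest overlap of a member with its match was 90 bp and the largest below the threshold 70 bp, and the 1226 replicate 1 peaks covered over 60 to 74 bp had a median strength of 18.

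Several of the strongest members lay at annotated starts outside the TSS set used, and 2 of these, the first and the fourth by mean strength rank, are shown. Capitals mark the letters of the searched motifs, here ETS (CCGGAA or TTCCGG) in Gm42906 and MEIS (TGACAG or CTGTCA) in Srebf1.
Gm42906, chr5:151368576-151368725: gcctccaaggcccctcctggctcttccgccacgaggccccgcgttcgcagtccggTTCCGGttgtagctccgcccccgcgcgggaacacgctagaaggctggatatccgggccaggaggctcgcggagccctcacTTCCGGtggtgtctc
Srebf1, chr11:60210416-60210565: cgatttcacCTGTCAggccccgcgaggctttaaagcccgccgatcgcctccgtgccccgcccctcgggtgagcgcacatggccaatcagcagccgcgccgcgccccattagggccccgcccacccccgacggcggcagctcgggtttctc

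Their GC contents were 70.0% and 72.0%. Gm42906 is a read-through gene model. Its member had strengths of 117 and 142, the highest of all members, and the Srebf1 member had 105 and 137, in intron 1 of the gene of a master regulator of lipid synthesis. They lay 24 and 26 bp from annotated TSSs outside the basic set of protein-coding transcripts that defined distance here: that of a transcript of the noncoding gene 1700028E10Rik and that of a further Srebf1 transcript. Of the 10 strongest members, 6 lay within 1 kb of such a TSS, the others of them in the cytoskeletal crosslinker gene Macf1 (197 bp), Arhgap29 (38 bp), the zinc finger gene Rreb1 (43 bp) and the Rab effector gene Rab11fip4 (11 bp). The starts in Srebf1, Macf1, Arhgap29, Rreb1 and Rab11fip4 belong to transcripts annotated as protein-coding. The remaining 4, in C87436, the stress-linked transcription factor gene Creb3l1, the zinc finger gene Prdm2 and the inositol kinase gene Itpkb, lay between 4352 and 16051 bp from the nearest annotated TSS of any kind. Strengths of all 10 were between 97 and 117 in replicate 1 and between 132 and 142 in replicate 2, and GC content was highest in Macf1 at 78.7%.

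Over all members, 1542 (8.53%) lay within 1 kb of an annotated TSS of any transcript, against 6.62% and 7.06% of all peaks at such positions in replicates 1 and 2 and 4.80% of eligible sequence. Inside long noncoding RNA genes lay 822 members (4.54%), against 4.07% and 4.37% of these peaks, and such genes cover 24.4 of the 696.7 Mb of eligible sequence. The members were divided by mean strength rank into 10 equal classes. In the strongest class 284 of 1809 (15.7%) lay within 1 kb of a TSS, in the second 9.73%, and in the weakest 121 of 1808 (6.69%). The CTCF letters were in 28.7% (26.6 to 30.8) of the strongest class, 29.4% (27.3 to 31.5) of the second, 16.3% of the fifth and 6.69% (5.58 to 7.94) of the weakest, which was still 6.69 times the share in windows of like GC. CAGATG changed little over the classes, from 17.7% in the strongest to 22.9% in the sixth and 18.03% in the weakest. TAATTA went the other way from CTCF, from 2.27% (1.63 to 3.06) to 6.31% (5.23 to 7.53), while the median GC content went from 54.0% to 46.0%. Set against windows of like GC, TAATTA stood at 1.95 times in the strongest and 1.88 times in the weakest class.

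**Figure D3:**
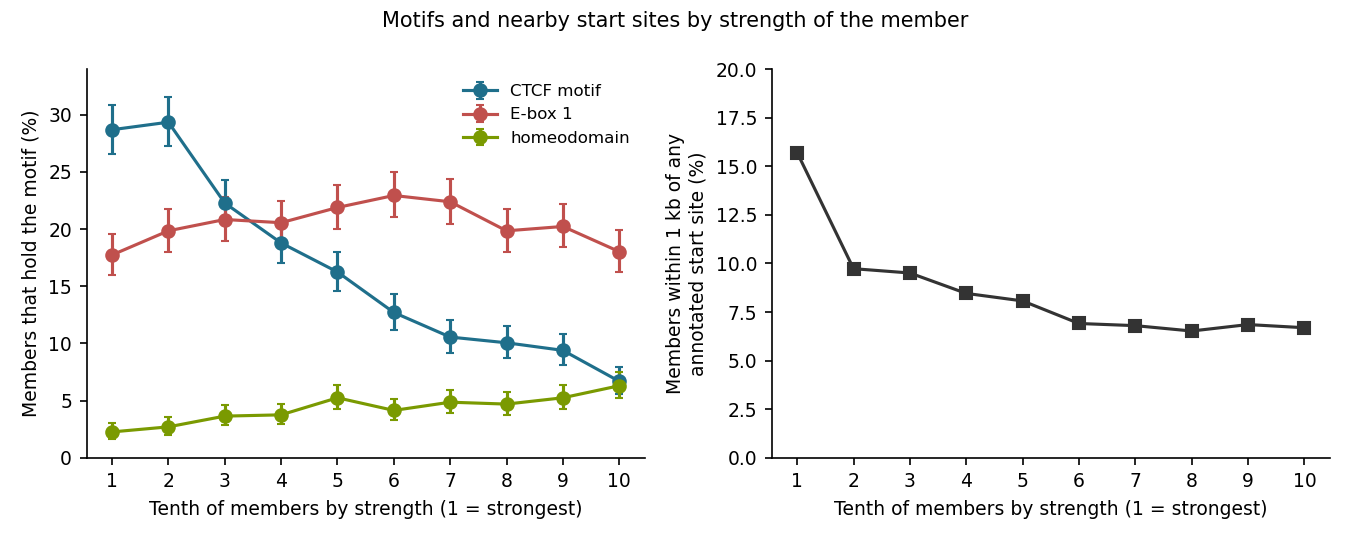
Left, share of members that hold the CTCF letters, the E-box CAGATG (E-box 1) or the homeodomain letters, in 10 equal classes of members by mean strength rank, with exact 95% binomial intervals. Right, share of members within 1 kb of any annotated TSS in the same classes. The CTCF share is 28.7% in the strongest and 6.69% in the weakest class, and the share near a TSS is 15.7% and 6.69%.

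Every member lay in a hotspot, one of the wider enriched regions that the authors called in each library. Members fell in 17212 hotspots of replicate 1, with a median length of 264 bp against 201 bp for all hotspots of that library, and in 16777 of replicate 2, with 327 against 240 bp. More than 1 member lay in 818 and 1196 of these, and at most 5. The deposited −log10 q value of the hotspot was at its ceiling of 100 for 32.4% of members in replicate 1 and 71.9% in replicate 2, against 29.5% and 35.1% of all hotspots. Its median was 3.81 in replicate 1 and 100 in replicate 2, and 18.3% and 4.06% were under 2. Neighbouring members started a median of 24.7 kb apart. Some were not separate sites: 1229 members (6.79%) overlapped another, and 1 position, in Fto, was listed in duplicate.

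The nearest TSS was that of a host for 13072 members, 72.3% (71.6 to 72.9), and that of another gene for the rest. Eligible sequence has its nearest TSS in a host at 76.3%, so members lay nearest to another gene slightly more often than the sequence open to them. All peaks of the single libraries stood between, at 74.6% and 74.4%. In first introns the shares were 88.9% of members against 93.6% of sequence, and in later introns 67.9% against 71.5%. Nearness does not show which gene a member acts on.

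Members were spread over 5161 hosts. Of the 8101 protein-coding genes with at least 10 kb of eligible sequence, 4782 (59.0%) had a member. A host had a median of 2 members, 2034 hosts had 1, 1183 had 5 or more and 70 had 20 or more, and 341 members lay in more than 1 host. Over all eligible sequence there were 26.0 members per Mb (25.6 to 26.3), against 24.4 shared peaks per Mb (24.1 to 24.7) in intergenic sequence at the same distances. The density in the single libraries was also higher in introns, 73.0 against 70.2 per Mb in replicate 1 and 79.9 against 70.3 in replicate 2.

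The 10 densest hosts, among the 1182 with at least 5 members and 10 kb of eligible sequence, had between 12.9 and 37.7 kb of it, and the ranking favours such short lengths. Amz2 (chr11:109425946-109452813), a zinc metallopeptidase gene, had 7 members in 13.0 kb, 0.537 per kb, among 12 peaks of replicate 1 and 7 of replicate 2. Trim62 (chr4:128883580-128911328), a RING finger ubiquitin ligase gene, had 8 in 15.0 kb, 0.534 per kb, among 12 peaks of each library, all in introns 2 and 4. The leader depended on the peaks used. All peaks of replicate 1 gave Amz2 0.920 per kb and put Abhd5 first at 2.61, all peaks of replicate 2 put Tfap2b first at 1.303, full-length matches only put Gm44511 first at 0.313, and Dnm1 led among the 50000 strongest peaks of each library at 0.205 and beyond 20 kb from a TSS at 0.485. The mean over all eligible sequence was 0.0260 per kb and the median of the ranked hosts 0.0461. All 7 Amz2 members lay outside the transcript on which its introns were numbered, and none remained in the set when the starts of every transcript of a coding gene counted as TSSs. Gm44511, with 8 members at 0.500 per kb, is a read-through gene model, one whose transcripts join neighbouring genes, and only 1 of its members had its nearest TSS in it.

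Strong members of 2 of these hosts, Trim62 and the amino acid transporter gene Slc38a4, are shown as examples. Other hosts differed: the strongest member of Mxra7 held AP-2 and CTCF letters, and that of Dnm1 none of those searched. Capitals mark the searched letters, which are SOX (ACAANG) in Trim62, and TEAD (GGAATG), ETS (CCGGAA) and the E-box CAGATG, in this order, in Slc38a4.
Trim62, chr4:128899456-128899605: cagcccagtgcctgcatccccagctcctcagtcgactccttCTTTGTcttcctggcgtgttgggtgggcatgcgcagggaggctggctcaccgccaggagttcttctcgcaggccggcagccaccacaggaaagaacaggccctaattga
Slc38a4, chr15:97000796-97000945: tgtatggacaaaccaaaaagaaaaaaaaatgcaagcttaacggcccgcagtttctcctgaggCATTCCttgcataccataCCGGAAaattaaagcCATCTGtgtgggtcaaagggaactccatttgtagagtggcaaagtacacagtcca

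The Trim62 member, in intron 2, had strengths of 72 and 120, and the Slc38a4 member, in intron 13, had 58 and 105. The 8 Trim62 members had strengths of 17 to 72 in replicate 1 and 28 to 120 in replicate 2. Slc38a4 had 6 members at 0.358 per kb, 4 of them within 4 kb of each other in intron 13 and an overlapping pair in intron 1. Mxra7, a matrix remodelling-associated gene, had 5 at 0.388 per kb, with median strengths of 42 and 92.

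A pair of nuclear factor I genes, whose products are transcription factors of many developing tissues, were among the 10 densest. Nfix (chr8:84699876-84800344) had 13 members among 26 peaks of replicate 1 and 17 of replicate 2, at 0.345 per kb, of which 10 lay in intron 2 between 54.7 and 62.6 kb from the 5′ end of the gene. Overlapping pairs were among them. The strengths of these 10 ran from 19 to 85 in replicate 1 and from 36 to 123 in replicate 2, and the nearest TSS was Nfix's own for 2 of all 13. Nfic had 6 at 0.345 per kb. Dnm1, the gene of the endocytic GTPase dynamin 1, had 10 members at 0.341 per kb in its introns 13 to 20, with median strengths of 47.5 and 100, and none had its nearest TSS in Dnm1. Camk2a, a calcium-dependent kinase gene of neurons, had 9 at 0.322 per kb, and the epidermal lipid gene Pnpla1 had 5 at 0.277 per kb. With read-through models left out and gene bodies limited to the numbered transcript, an alternative added after seeing the data, Trim62 led at 0.534 per kb before Nfic at 0.470, Amz2 left the ranking and Sept9 and Gse1 entered the first 10.

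The hosts with most members were large. The read-through model Gm20388 spanned 4435 kb and held 230 members, 2 of which had their nearest TSS in it. Of the 230, 228 lay in its first intron. Fgfr2, the gene of a fibroblast growth factor receptor needed for the palate and skull, had 93 members in a body of 2961 kb, but that span comes from 1 long transcript, and 4 of the 93 lay in introns of its numbered transcript. Auts2, a nuclear regulator of neural development, had 58 members, all nearest to its own TSSs, and the zinc finger homeobox gene Zfhx3 had 54, also all nearest to its own. Gse1 had 56 in 305 kb, 0.184 per kb. In introns of the numbered transcript, Auts2 had 4 members in the first and 1 in later introns, and Gse1 had 7 and 8. With numbered transcripts as gene bodies and read-through models left out, Zfhx3 had most members, 54, and neither gene was in the first 10. The dynamin gene Dnm3 had 48, 0.106 per kb, 46 of them in later introns. Bcas3 had 42, the calmodulin-binding activator gene Camta1 36, the recombination gene Rad51b 33 and the phosphodiesterase gene Pde4d 33, the last at 0.0247 per kb, near the mean over all eligible sequence.

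**Figure D4:**
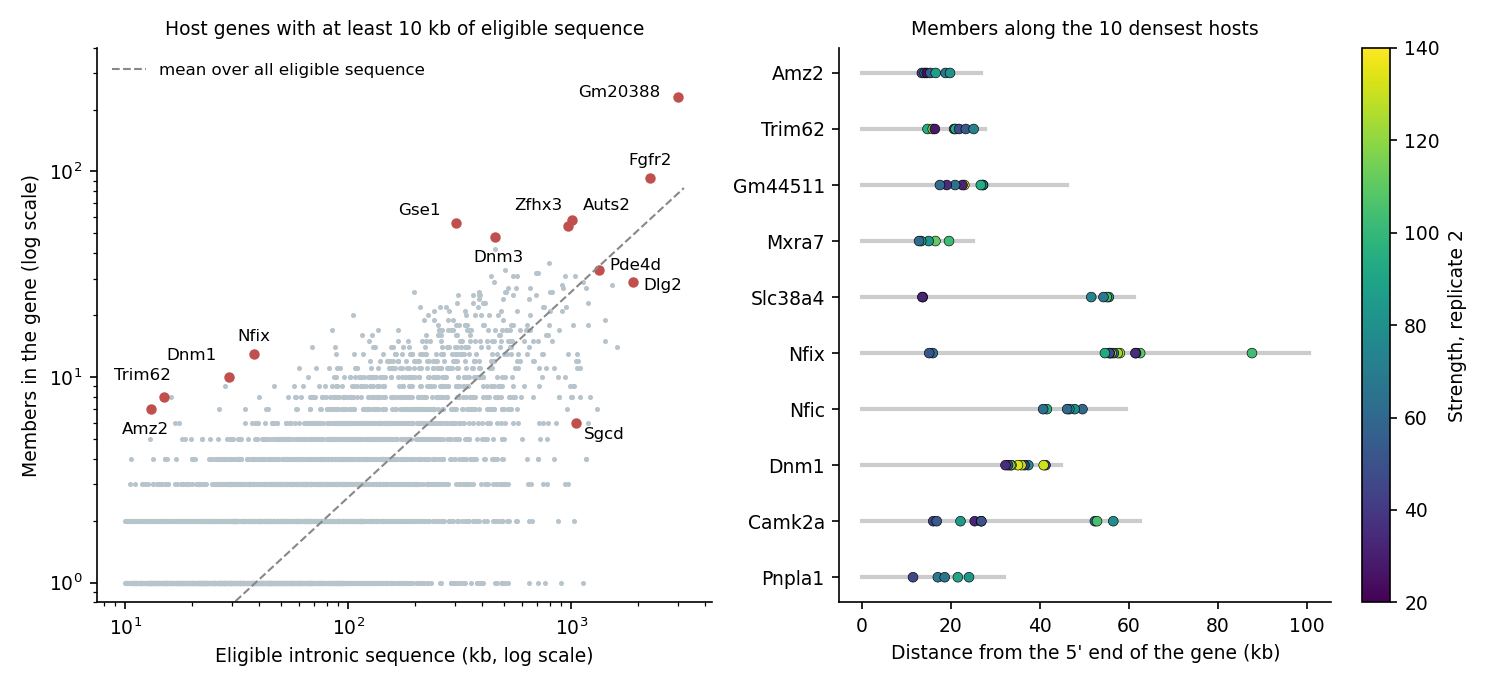
Left, members against eligible intronic sequence (kb) for hosts with at least 10 kb of it, both on log scales, with the mean density of 0.0260 per kb as a dashed line. Right, members along the 10 densest hosts by distance from the 5′ end of the gene (kb), coloured by strength in replicate 2. Nfix members cluster in 1 stretch, and Gm20388 holds the most members with 230.

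Host genes were then grouped by lists for the tissue. These lists were chosen with earlier results of these data known, so the densities by list are a description and not independent support. The median over the genes of a list is given beside its pooled density, and over all protein-coding genes these were 15.6 and 26.1 members per Mb. Of the craniofacial and neural crest transcription factor genes, 51 had at least 10 kb of eligible sequence and 46 (90.2%) had a member, against 59.0% of all such genes. That share rises with gene size: it was 92.3% of the 1744 genes with at least 100 kb, and 93.3% in the list of large neuronal genes described below, so it does not mark the list. They held 563 members, 48.0 per Mb (44.1 to 52.1), with a median of 48.4. Facial signalling genes held 273 members in 38 of 44 genes, 43.4 per Mb (38.4 to 48.9), with a median of 40.7. Fgfr2 alone held 93 of the 273, at 0.0414 per kb, in 2247 kb of the list's 6.29 Mb of eligible sequence. Of these 93, 4 lay in introns of its numbered transcript and 12 had their nearest TSS in it. The density of the list without Fgfr2 was not computed. In the single libraries, all peaks in these lists were at 114 and 153 per Mb and at 93.7 and 128 per Mb, against 73.1 and 80.1 over all genes. Auts2, Zfhx3, Sox5 (28), a regulator of cartilage, and Bnc2 (26), a zinc finger gene of mesenchyme, had most members of the transcription factor list. Tgfbr3 (15), a TGF-beta co-receptor gene, Notch2 (13) and Ror2 (13), a receptor gene of Wnt5a signalling, followed Fgfr2 in the signalling list.

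Axon guidance and cell adhesion genes were near the overall density, at 25.6 per Mb (23.4 to 27.8; median 29.9), with 521 members in 55 of 58 genes. Robo1 had 32, Slit3 31, Ntm 31 and Tenm3 27, where Robo1 and Slit3 encode a receptor and a ligand of the same guidance system. Large neuronal genes were sparse: 435 members in 42 of 45 genes gave 12.5 per Mb (11.4 to 13.8; median 10.5), and their peaks in the single libraries were at 44.8 and 45.9 per Mb. Among them Dlg2, a synaptic scaffold gene, had 29 members in 1894 kb, 0.0153 per kb, and the synaptic adhesion gene Nrxn3 had 28, the ion channel gene Asic2 31 and the neuron navigator gene Nav2 27. The libraries differed over several of these genes: replicate 1 had 192 peaks in Dlg2, 162 in Robo1 and 194 in Ntm, against 89, 82 and 74 in replicate 2, while Slit3 had 39 and 104 and Nav2 33 and 89.

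The share of members with CTCF letters was 3.37% (2.04 to 5.22) in transcription factor genes, 19 of 563 members, 9.16% (6.01 to 13.2) in signalling genes, 9.98% (7.54 to 12.9) in axon guidance genes and 19.5% (15.9 to 23.6) in large neuronal genes, 85 of 435 members. The E-box CAGATG was at 21.7% (18.3 to 25.3), 24.9% (19.9 to 30.5), 22.1% (18.6 to 25.9) and 21.8% (18.04 to 26.0), with overlapping intervals. These shares depend on the number of other members as well, and those of signalling genes include the members in Fgfr2. Per Mb, members with CTCF letters were at 1.62 (0.974 to 2.53), 3.98 (2.57 to 5.87), 2.55 (1.91 to 3.34) and 2.45 (1.96 to 3.03) in these lists, against 4.28 (4.13 to 4.43) over all eligible sequence, so large neuronal genes were below the overall density of such members too. Members without the letters were at 46.3 (42.5 to 50.4), 39.5 (34.7 to 44.7), 23.0 (20.97 to 25.2) and 10.1 (9.06 to 11.2) per Mb, against 21.7 overall.

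**Figure D5:**
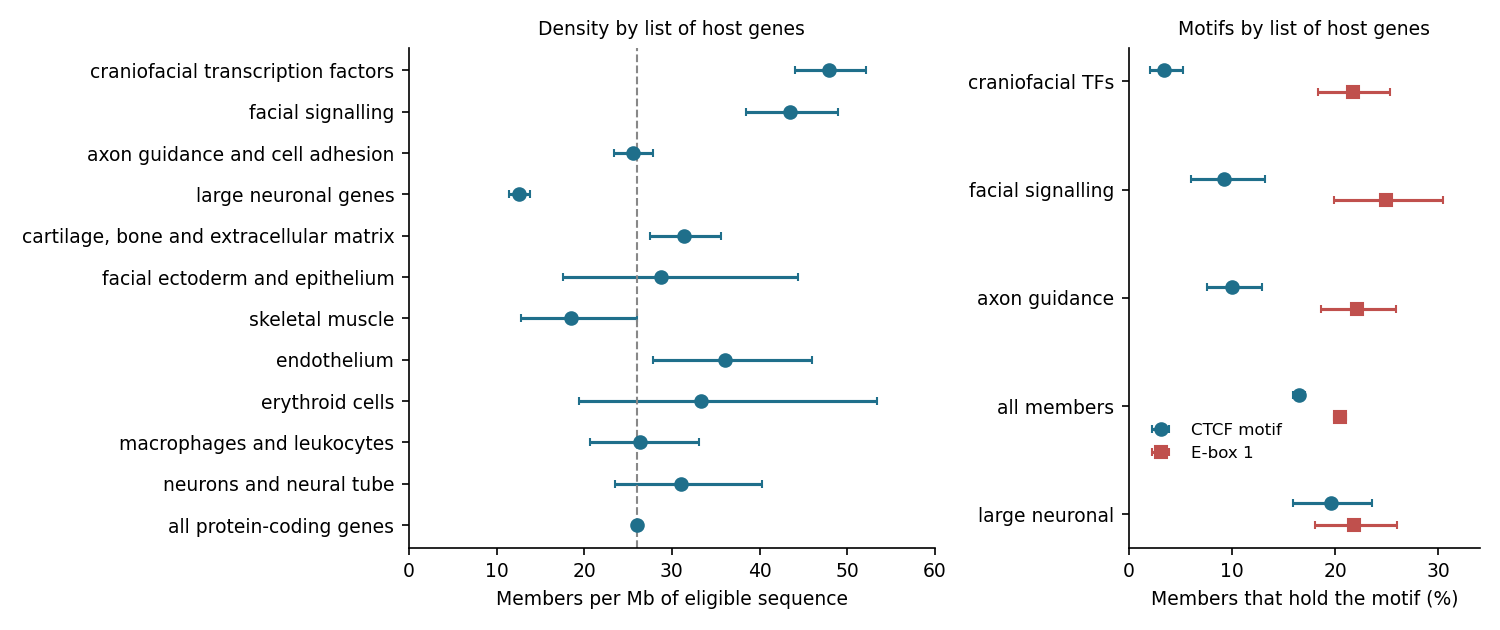
Left, members per Mb of eligible sequence by list of host genes, with exact 95% Poisson intervals that cover counting error only and the value over all protein-coding genes as a dashed line. Right, share of members with the CTCF letters or the E-box CAGATG (E-box 1) in 4 lists and over all members, with exact 95% binomial intervals. Craniofacial transcription factor genes have 48.0 members per Mb, of which 3.37% hold CTCF letters, and large neuronal genes 12.5 per Mb, of which 19.5% do. The lists were chosen with earlier results of these data known.

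Genes of cartilage, bone and extracellular matrix had 31.4 members per Mb (27.6 to 35.6; median 22.9), led by the collagen gene Col23a1 with 22 and the glypican gene Gpc6 with 21. Lists for other cells that the facial prominence can hold had few members and wide intervals. Facial ectoderm and epithelium genes had 20 members, 28.7 per Mb (17.5 to 44.3; median 26.0), with 5 in Macc1, 4 in the cadherin gene Cdh3, 3 in the epithelial factor gene Grhl2 and 2 in Grhl1. Endothelial genes had 65, 36.1 per Mb (27.8 to 46.0) but a median over genes of 17.8, with 24 in Mecom and 9 in Pecam1, 6 each in Ets1 and Prkch. Erythroid genes had 17, 33.4 per Mb (19.4 to 53.4; median 39.1), with 5 in the red cell skeleton gene Epb41, 3 in Bcl11a, 3 in Sptb and 2 in Rhag. Macrophage and leukocyte genes had 74, 26.3 per Mb (20.7 to 33.1; median 17.8), with 17 in Arhgap15, 15 in Elmo1, 9 in Runx1 and 7 in Dock2. Skeletal muscle genes had 33, 18.5 per Mb (12.7 to 26.0; median 21.7), with 8 in Ryr1, 6 in Sgcd, 3 in Pax7 and 3 in Mef2a. Neuronal and neural tube genes had 56, 31.1 per Mb (23.5 to 40.3; median 14.1), with 25 in Rbfox3, 9 in Ncam1, 5 in Pax6 and 4 in Lmx1b. Rbfox3, which is also in the list of large neuronal genes, held its 25 in 385.5 kb of eligible sequence. The density of the list without Rbfox3 was not computed. Only endothelium among these had an interval that lay wholly above the overall 26.1 per Mb, and skeletal muscle one wholly below it. The endothelial value leans on Mecom, which is also in the craniofacial transcription factor list. That gene held 24 of the 65 members in 497 kb of the list's 1.80 Mb of eligible sequence. The density without it was not computed. The part of each cell type in the tissue was not tested.

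The last group comprised genes known to carry enhancers of a neighbour in their introns. Fto, whose introns carry enhancers of the Irx3 and Irx5 genes, had 18 listed members at 17 distinct positions, 9 of the 18 nearest to its own TSSs. Dync1i1 had 7 with median strengths of 39 and 85, and Elp4, which carries enhancers of the eye and brain regulator Pax6, had 6 with the low medians of 15.5 and 32.5. Lmbr1, which carries the limb enhancer of the signalling gene Shh, had 3. Herc2, which carries an enhancer of the pigment gene Oca2, and Lnpk, beside the Hoxd cluster, had none. In Herc2 no peak of either library lay at such a position in 155 kb, while in Lnpk replicate 1 had 5 and replicate 2 had 2 peaks that did not match.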

How the data were processed

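Open chromatin was measured by DNase-seq in 2 libraries of 1 group, so no contrast was tested and values are counts with exact 95% intervals, beside each library's own value. Per the file headers, the authors called peaks and hotspots in each library alone on build mm10, with an aligner and caller not given in the sources used here. The deposited peak strength is a score from 0 to 150 whose relation to depth is unknown, and the deposited hotspot value is a −log10 q value with a ceiling of 100. Read totals were not used here.

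Positions came from GENCODE M21, with 39515 TSSs of 20720 protein-coding genes (basic transcripts), and introns were numbered on 1 transcript a gene, the APPRIS principal one first and the longest among equals. Sequences are from RefSeq GRCm38.p6. Motif letters were counted on both strands in members and in non-overlapping windows of eligible sequence, reweighted to the members' GC. Computation used Python 3.11.15, numpy 2.4.6, pandas 2.3.3, scipy 1.17.1 and matplotlib 3.10.9, and was tested on simulated data. The replicates are separate biosamples with the same donor label, so their spread may be partly technical. Of the peak positions, 61 in replicate 1 and 22 in replicate 2 were listed more than once and were kept. Members and lists were chosen with earlier results of these data known. Hosts named are the 10 with most members per kb, the 10 with most members and up to 4 in each list, with all genes of the last list; peaks named are the 10 strongest. Sequences on chromosome 18 are not shown, and the sets of sequences were chosen without it.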

Additional observations from a re-analysis of the deposited data

How the results depend on the processing

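No paired analysis was possible because the 2 libraries form 1 group and no result comes from a test. Over 15 alternatives, of which 3 and all those for the CTCF letters, distance and lists were chosen after seeing the data, 153 values were compared; where one moved, the cause was not tested. With full-length matches only (all 150 bp) there were 5644 members, and with each library cut to its 50000 strongest peaks 5602. In that order, the density ratio of first to later introns was 0.863 and 0.869, the share nearest a host's TSS 71.5% and 69.2%, the density ratio of 100 to 500 kb to 10 to 20 kb 0.570 and 0.470, the CTCF share 24.1% and 26.9% and its ratio of first to later introns 0.672 and 0.504. Facial signalling density over that of all genes (1.67) became 1.43 and 1.93, that of transcription factor genes (1.84) 1.31 with full-length matches, and that of large neuronal genes (0.481) 0.364 among the strongest. A match of 1 bp gave 72.6% nearest a host and a CTCF share of 14.0%. Beyond 20 kb these were 70.5% and 15.0%. With TSSs of every transcript they were 84.3% and 14.8%, the distance ratio 0.573 and the CTCF ratio 0.707, and with every coding transcript 76.1% lay nearest a host. Hosts overlapping no other gene gave a ratio of 0.885, 76.0% nearest, 1.92 for signalling, 0.431 for neuronal genes and a CTCF ratio of 0.552. Without read-through genes the ratio was 0.913, the CTCF ratio 0.575 and the share nearest 72.95%; with numbered transcripts as bodies the ratios were also 0.913 and 0.575, and signalling 1.89. The ratio without CTCF letters (1.03) turned to 0.928 with full-length matches, 0.996 beyond 20 kb, 0.958 for hosts overlapping no other gene and 0.987 under both last settings. Single libraries, leaving out the other, gave 50874 to 55697 peaks, ratios of 1.035 to 1.087 (reversed), 74.4% to 74.6% nearest, distance ratios of 0.851 to 0.960, 1.56 to 1.91 for transcription factor, 1.28 to 1.59 for signalling and 0.573 to 0.613 for neuronal genes, CTCF shares of 6.33% to 7.99%, and ratios of 0.639 to 0.677 with and 1.06 to 1.13 without the letters. The densest host could not be valued for hosts overlapping no other gene. Depth is unknown, and its part in the matching was not tested.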
